A study of Mus musculus with 51 samples.

Results

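A set of 10 genes of cytotoxic T cells and natural killer (NK) cells was chosen by name: Cd3e, Cd3g, Cd8a, Cd8b1, Trac, Trbc2, Gzma, Gzmb, Prf1 and Nkg7. Of these 10, 8 had a row among the 40077 genes of the tables, and Trac and Trbc2 were not analysed here. They were read in 35 libraries of whole mouse tumors, with 16 libraries of cultured Myc-CaP cells as background. GEO's tissue labels call these 16 prostate tumor as well, and they were taken as cells by their titles, their treatments and the study's methods. RNA was sequenced in bulk, so the few T cells and NK cells of a tumor share a library with its cancer cells and stroma. A lower level can mean fewer cells of a type or less RNA per cell, and these cannot be told apart.

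The study asked how UBA1, the enzyme that activates ubiquitin at the start of the ubiquitin cascade, bears on the T cells inside tumors. Myc-CaP is a mouse prostate cancer line grown in male FVB mice, and B16-BL6 is a mouse melanoma line grown in female C57BL/6 mice, all immunocompetent and 6 to 8 weeks old at injection. In B16-BL6, 3 tumors with the control guide (sgNC) stood against 4 labelled sgUba1, and in Myc-CaP, 3 sgNC tumors stood against 7 labelled sgUba1. The other Myc-CaP tumors were 3 with empty vector (EV) against 4 with Uba1 overexpression (Uba1 OE), and 6 given vehicle against 5 given TAK-243, an inhibitor of UBA1, at 25 mg/kg by vein. The 16 cell libraries were 2 for each of 8 states: parental cells untreated or with TAK-243 (50 nM), IFN-γ (1 ng/mL) or both for 18 hours, and NC or sgUba1 cells with PBS or IFN-γ. Lines made with the guides were sublines grown from single cells, and the labels do not say which subline or guide gave a tumor. Both flanks of a mouse were injected and the labels number tumors, not mice, so p-values measure the spread between these samples only. No B16-BL6 cells grown in culture were analysed here.

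Killer T cells see antigen through the T cell receptor, which signals through the CD3 chains and is held to MHC class I by the CD8 co-receptor. On contact they release granules in which perforin opens the target's membrane and granzymes enter to start cell death. NK cells carry the same granules but have no rearranged T cell receptor, and CD8α is also found on some dendritic cells.

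Uba1 was targeted by the guides below, shown because they define the sgUba1 groups. Each is printed with the 20 bases of the guide in lower case and the PAM, the short motif that Cas9 needs beside its target, in capitals. Both sites lie in coding sequence of Uba1 (GENCODE M21, GRCm38).
sgUba1 #1, chrX:20669136-20669155, minus strand, exon 5: taccaatgtcctcctcccgaAGG
sgUba1 #2, chrX:20670263-20670282, plus strand, exon 6: tagccgtggtatcaagctagTGG

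Uba1 RNA was read first as a check of the labels, in CPM, each gene's count divided by the library's total and scaled up alike for all libraries. It was 420 ± 19.5 CPM (SD, n = 3) in B16-BL6 sgNC tumors and 228 ± 16.8 (SD, n = 4) in those labelled sgUba1, a log2 fold change of -0.92 (edgeR, adjusted p = 7.8e-05). It was 300.0 ± 15.1 (SD, n = 3) in EV tumors and 694 ± 51.8 (SD, n = 4) in Uba1 OE tumors, a log2 fold change of 1.27 (edgeR, adjusted p = 0.00466). In Myc-CaP sgNC tumors it was 321, 303 and 334 CPM, and in the 7 tumors labelled sgUba1 it was 211, 217, 222, 359, 337, 362 and 382 CPM. Only the first 3 of these 7 lay below the controls, and the other 4 lay above them, so the label is kept here as a label. The study checked depletion in its guide lines by Sanger sequencing and immunoblot, and called it partial. RNA does not measure UBA1 protein, so these values do not show which tumors lacked it. The total count per tumor library ran from 8652097 to 35693203. The melanocyte genes summed to between 9793 and 11354 CPM in the B16-BL6 tumors and to no more than 5.53 CPM in the Myc-CaP tumors.

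Across the 35 tumors the 8 genes were low. Of their 280 values, 42 were 0 and 88 reached 10 expected counts, the estimated number of reads per gene. A count of 0 allows up to 3 counts, which is 0.084 to 0.347 CPM in these tumors, and such limits cover counting error only. Per length, in TPM (transcript abundance scaled for length and depth), Cd8a had the highest median over the tumors at 2.55. Cd8b1 followed at 0.945 and Cd3e at 0.402. The medians of Cd3g (0.335), Gzmb (0.259), Prf1 (0.243), Nkg7 (0.147) and Gzma (0.0751) were lower, and the ranges of these neighbors overlapped.

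The cultured cells set the background, and it differed between genes. Cd3g, Gzma, Gzmb and Nkg7 were at 0 in all 16 cell libraries, where a count of 0 allows 0.0789 to 0.233 CPM. Cd3e reached at most 3 counts there and Prf1 at most 8.22. Cd8a and Cd8b1 had counts in every cell library: 6 to 62 counts of Cd8a, with a median of 1.47 CPM, and 4.67 to 22.4 counts of Cd8b1, with a median of 0.48 CPM. In the same cells Ptprc, which encodes CD45 of all leukocytes, had 0 to 3 counts. The Cd8b1 median of the tumors, 0.819 CPM, was above that of the cultured cells, but the ranges overlapped, with 7 of 35 tumors above the highest cell library. Cd8a exceeded it in 34 of 35 tumors, all but Uba1 OE replicate 1, at 1.30 CPM against 2.16. For the others the number above was 31 for Gzmb, 30 for Cd3g, 24 for Prf1, 23 for Cd3e, 22 for Nkg7 and 19 for Gzma. Where the cells were all at 0 (Gzmb, Cd3g, Nkg7 and Gzma), a tumor needed only 1 count to be above. Of the 1453 words of 31 bases in the Cd8b1 transcript, 8.4% also occur in transcripts of other genes, so its reads could be split with them. For the other 7 genes this share was 0 to 1.35%, and the highest was that of Gzmb, which shared 19 words with Gzmc.

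**Figure D1:**
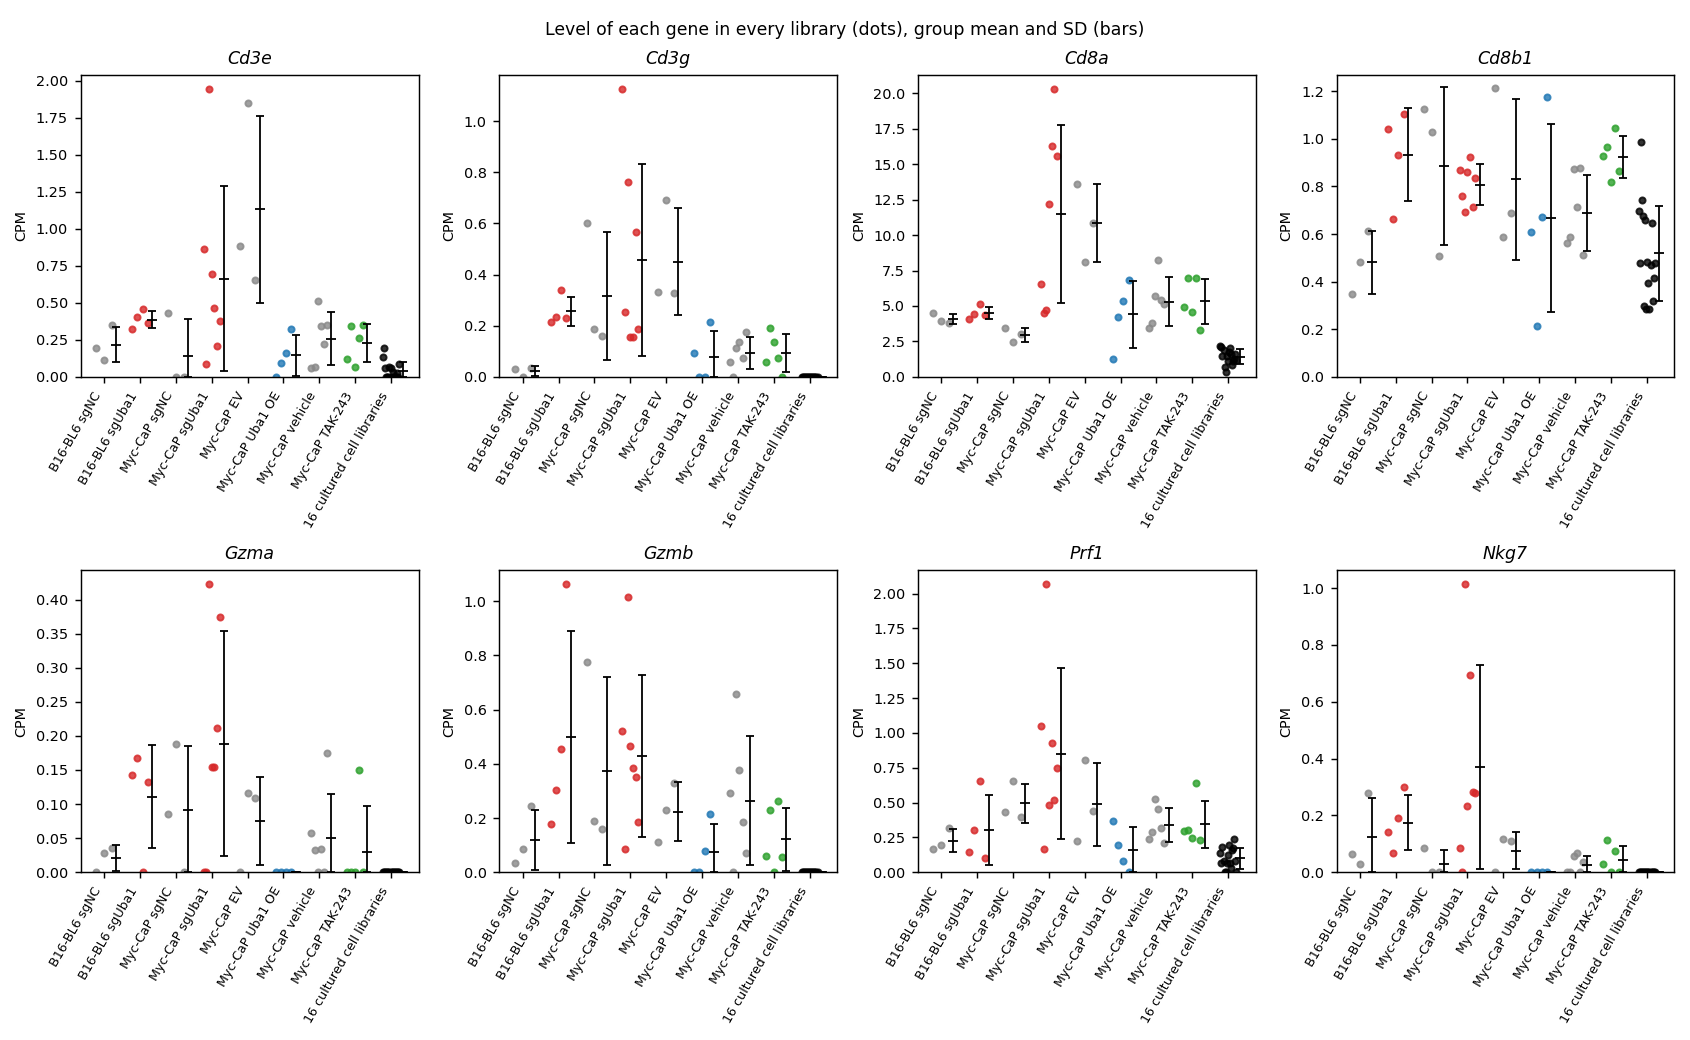
Each panel plots 1 gene in CPM (vertical axis from 0) by group, with a dot for every library and, beside the dots, the group mean with its SD, cut at 0. Cd8a and Cd8b1 have signal in the cultured cells, while Cd3g, Gzma, Gzmb and Nkg7 are at 0 in all 16.

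In B16-BL6 tumors labelled sgUba1, no gene of the set passed the test, and Cd3g and Cd8b1 were higher in every tumor than in any control. So were 7.19% of all genes with at least 1 count. Cd3g, a signaling chain of the receptor complex (chromosome 9, 44969572 to 44980431, minus strand, on GRCm38 as all positions here), had 1, 0 and 1 counts in the sgNC tumors and 6, 7, 9 and 7 in those labelled sgUba1. The groups did not overlap. Summed over tumors these were 29 counts against 2, a ratio of rates of 12.1 with an exact 95% counting interval of 3.05 to 104. Without the filter on low counts, edgeR gave an adjusted p of 0.0714 for Cd3g, with 0.0348 to 0.353 over its alternatives. It passed with limma-voom (0.0348) and without sgUba1 replicate 4 (0.0443), both chosen after seeing the data.

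Cd3e, another chain of that complex (chromosome 9, 44998740 to 45009627, minus strand), had 6, 4 and 10 counts in the B16-BL6 sgNC tumors and 9, 12, 12 and 11 in those labelled sgUba1. One control, at 10 counts, lay within the range of the other group. The log2 fold change was 0.81 (SE 0.44; edgeR, adjusted p = 0.391). Cd8b1, the β chain of CD8 (chromosome 6, 71322788 to 71337494, plus strand), had 10.7, 17.2 and 17.6 counts against 29.1, 19.7, 24.5 and 33.2. These groups did not overlap, and the log2 fold change was 0.91 (SE 0.30; edgeR, adjusted p = 0.190). Its partner Cd8a, the α chain (chromosome 6, 71373427 to 71379173, plus strand), was at 4.48, 3.93 and 3.84 CPM against 4.07, 4.44, 5.14 and 4.38. The Cd8a groups overlapped, with a log2 fold change of 0.11 (SE 0.14; edgeR, adjusted p = 0.754).

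The granule genes of the B16-BL6 tumors varied more between replicates. Gzmb, a granzyme that cleaves caspases (chromosome 14, 56258838 to 56262260, minus strand), had 1, 3 and 7 counts in sgNC tumors and 5, 9, 12 and 32 in those labelled sgUba1. Replicate 4 gave 32 of the 58 counts of the second group, and the groups overlapped (log2 fold change without the filter 2.03; edgeR, adjusted p = 0.217). Gzma, the other granzyme (chromosome 13, 113093825 to 113100981, minus strand), had 0, 1 and 1 counts against 4, 5, 0 and 4. The ratio of rates of Gzma was 5.41, with a counting interval of 1.22 to 49.4, and sgUba1 replicate 3 was at 0. That interval leaves out the spread between tumors. Over the 10 settings that gave one, the adjusted p of Gzma (edgeR and the other tools) was 0.326 to 0.752. Prf1, which encodes perforin (chromosome 10, 61297833 to 61304680, plus strand), had 5.04, 7.04 and 9.11 counts against 4.13, 9.12, 17.2 and 3. Nkg7, a protein of the granule membrane (chromosome 7, 43437073 to 43438249, plus strand), had 2, 1 and 8 counts against 4, 2, 5 and 9. In both of these genes the groups overlapped in part.

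By edgeR 3 of the 8 genes could be tested in B16-BL6 (Cd3e, Cd8a, Cd8b1) and 0 passed, while 0.895% of all genes tested did. Of these 3, 1 had an unadjusted p under 0.05, and DESeq2 and limma-voom called 0. Among the genes with at least 1 count, 7.19% were higher in every sgUba1 tumor and 4.48% were lower in every one, and of the 8 genes 2 were higher and 0 lower. Of 3 listed chemokines that draw T cells (Cxcl9, Cxcl10 and Cxcl11), 0 were called. In 1 of them, Cxcl9, all 4 tumors were higher than any control (log2 fold change 1.08; edgeR, adjusted p = 0.265). Ptprc was at 10.9 ± 0.636 CPM (SD, n = 4) against 6.32 ± 2.77 (SD, n = 3), with an adjusted p of 0.163. The summed leukocyte markers were at 17.0 to 32.0 CPM in controls and 33.2 to 37.0 in the tumors labelled sgUba1, and their part in the Cd3g and Cd8b1 differences was not tested.

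In Myc-CaP tumors labelled sgUba1, Cd8a stood apart from the controls and the other 7 genes did not. Higher in every such tumor were 5.23% of all genes with at least 1 count. Cd8a was at 3.45, 2.47 and 3.06 CPM in the sgNC tumors and at 6.58, 4.52, 4.73, 12.2, 16.3, 20.3 and 15.5 CPM in the tumors labelled sgUba1, replicates 1 to 7. The groups did not overlap, and replicates 4 to 7 were the highest of all 35 tumors but for EV replicate 1, which at 13.6 CPM lay above replicate 4. The means were 2.99 ± 0.493 (SD, n = 3) and 11.5 ± 6.27 (SD, n = 7), a log2 fold change of 1.93 (SE 0.56; edgeR, adjusted p = 0.0820). The Cd8a call depended on the fit: the adjusted p was 0.00472 with DESeq2 and 0.00391 with all 35 tumors in a single fit, over a range of 0.00391 to 0.375 for all alternatives. DESeq2 called 1862 of the 16202 genes tested, and the single fit called 3102 of 19557. The 4 tumors with the highest Cd8a were also the 4 whose Uba1 RNA lay above the controls, at 359, 337, 362 and 382 CPM. The 3 with Uba1 RNA below the controls had Cd8a at 6.58, 4.52 and 4.73 CPM.

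**Figure D2:**
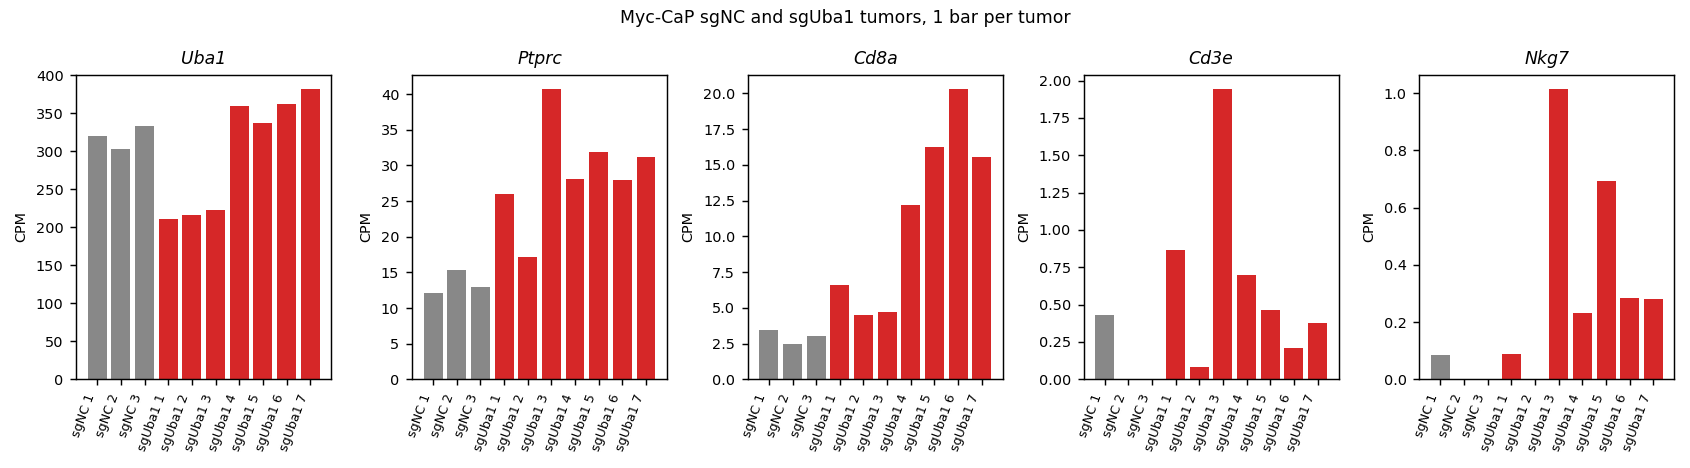
Bars plot Uba1, Ptprc, Cd8a, Cd3e and Nkg7 in CPM for each of the 3 Myc-CaP sgNC tumors (grey) and the 7 labelled sgUba1 (red), with 1 bar per tumor and axes from 0. Cd8a is highest in sgUba1 replicates 4 to 7, where Uba1 is above the controls, while Cd3e, Nkg7 and Ptprc are highest in replicate 3.

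The β chain did not follow. Cd8b1 was at 13.1, 11 and 6.35 counts in the Myc-CaP sgNC tumors and at 8.20 to 12 counts, median 10.05, in the 7 labelled sgUba1, with a log2 fold change of -0.16 (SE 0.31; edgeR, adjusted p = 0.811). In CPM, the Cd8b1 values of all 7 lay between those of sgNC replicates 3 and 2, and within the range of the cultured cells. In the plot of Cd8a against Cd8b1 these 7 tumors spread along the Cd8a axis. Over the 35 tumors, after each group's mean was taken off, Pearson's r of the pair was 0.229, a description of libraries of unequal depth.

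**Figure D3:**
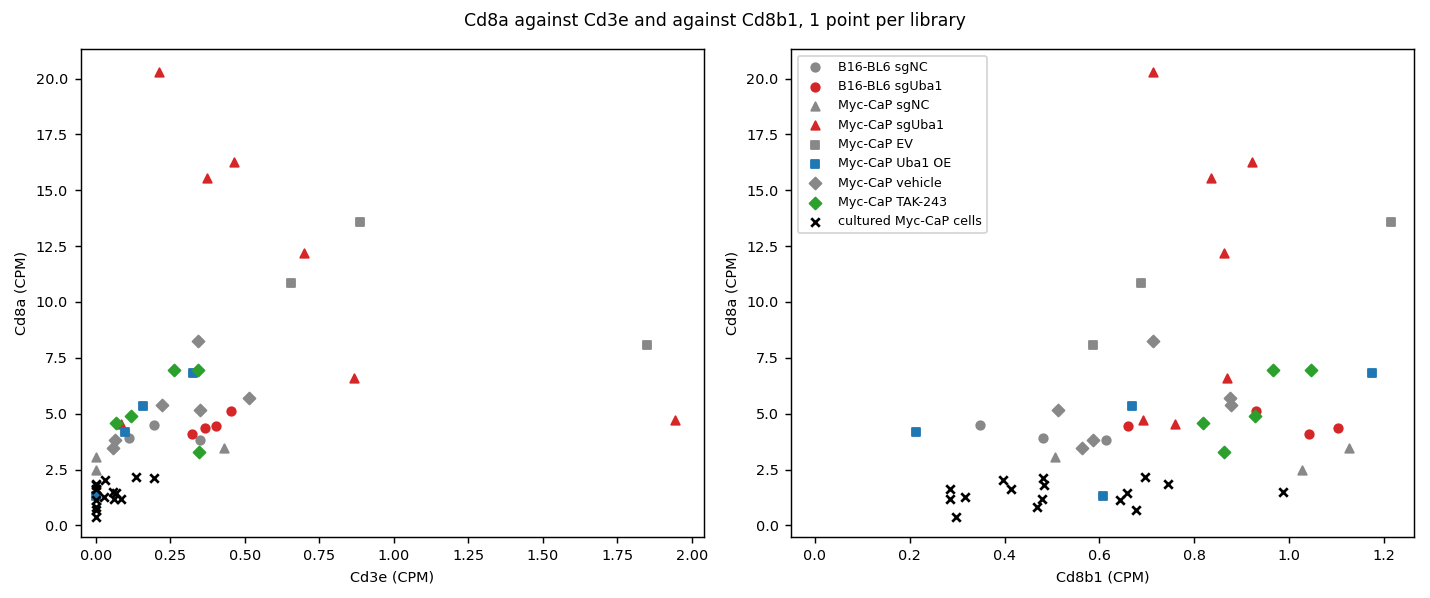
Each point is 1 library, with Cd8a on the vertical axis and Cd3e (left) or Cd8b1 (right) on the horizontal axis, all in CPM, for the 35 tumors and 16 cell libraries. The Myc-CaP tumors labelled sgUba1 reach 20.3 for Cd8a while their Cd8b1 stays between 0.693 and 0.923.

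Of the other genes in the Myc-CaP tumors, Cd3e, Gzma, Gzmb, Prf1 and Nkg7 were highest in sgUba1 replicate 3, which had Cd8a at 4.73 CPM. Cd3e had 5, 0 and 0 counts in sgNC tumors and 10, 1, 23, 9, 6, 3 and 4 in those labelled sgUba1. Nkg7 had 1, 0 and 0 counts against 1, 0, 12, 3, 9, 4 and 3. Both pairs of groups overlapped, and for Nkg7 the overlap came from sgUba1 replicate 2, which had 0 counts. The ratio of rates for Nkg7, 32 counts against 1, was 13 with a counting interval of 2.17 to 529, and without the filter its adjusted p by edgeR was 0.235. That of Cd3e without the filter was 0.352, at a log2 fold change of 2.07.

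Cd3g had 7, 2 and 2 counts in Myc-CaP sgNC tumors and 13, 3, 9, 2, 2, 8 and 2 in those labelled sgUba1. Gzmb had 9, 2 and 2 against 6, 1, 12, 6, 5, 5 and 2, and Gzma had 1, 2 and 0 against 0, 0, 5, 2, 2, 3 and 4. In each of these 3 genes the groups overlapped widely, and the adjusted p without the filter (edgeR) was 0.746 for Cd3g, 0.924 for Gzmb and 0.655 for Gzma. Prf1 had 5, 7 and 5 counts against 12.1, 2, 24.5, 6.26, 12, 7.34 and 8. Its log2 fold change was 0.69 (SE 0.62; edgeR, adjusted p = 0.533).

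In this comparison 3 of the 8 genes could be tested (Cd8a, Cd8b1, Prf1) and edgeR called 0, against 2.99% of all genes. One of the 3 had an unadjusted p under 0.05, limma-voom called 0 and DESeq2 called 1, Cd8a. Of the 16202 genes tested, DESeq2 called 1862 where edgeR called 485. Higher in every tumor labelled sgUba1 was 1 of the 8, against 5.23% of genes with at least 1 count, and lower in every one were 0, against 2.48%. Ptprc was at 13.4 ± 1.67 CPM (SD, n = 3) in controls and 29.0 ± 7.10 (SD, n = 7), a log2 fold change of 1.06 (edgeR, adjusted p = 0.0467). The macrophage genes Cd68, Adgre1 and C1qa were higher as well, with log2 fold changes of 0.83, 1.15 and 0.82 (edgeR, adjusted p = 0.0306, 0.0280 and 0.0306). Of 3 dendritic cell genes 0 were called, and all 3 had a log2 fold change above 0, with a median of 0.18. Their part in the Cd8a difference was not tested. Of the 3 chemokines 0 were called and 0 stood apart from the controls. Cxcl9 was at 2.44 to 6.39 CPM in controls and at 1.89 to 26.6 CPM in the tumors labelled sgUba1. The summed leukocyte markers were at 38.2 to 44.7 CPM in controls and 53.8 to 105 CPM in the tumors labelled sgUba1. The prostate epithelium genes were at 1637 to 2243 CPM and 2472 to 2946 CPM, and the part of either list in the Cd8a difference was not tested. Cd4, the co-receptor of helper T cells, had an adjusted p of 0.0848 (log2 fold change 1.39).

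Whether the effect differed between the models was tested in 1 fit of all 17 sgNC and sgUba1 tumors. The log2 fold change of Cd8a was larger in Myc-CaP by 1.84 (SE 0.63; edgeR, adjusted p = 0.140) and that of Cd8b1 was smaller by a difference of -1.05 (SE 0.41; edgeR, adjusted p = 0.192). Of the 8 genes 4 could be tested and 0 passed, against 1.59% of all genes. Cd8a and Cd8b1 were the 2 with an unadjusted p under 0.05, and DESeq2 called 1, Cd8a, at an adjusted p of 0.0466. Of the 17513 genes tested, DESeq2 called 1178 where edgeR called 278. For Gzmb the difference was -1.84 (SE 1.09; adjusted p = 0.387) and for Prf1 0.35 (SE 0.96; adjusted p = 0.892).

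In Uba1 OE tumors, 3 of the 8 genes, Cd3e, Cd3g and Cd8a, were lower in every tumor than in any EV tumor. The same held for 10.2% of all genes with at least 1 count. Cd8a was at 13.6, 8.09 and 10.8 CPM in EV tumors and at 1.30, 4.19, 5.33 and 6.82 CPM in Uba1 OE tumors. The means were 10.8 ± 2.75 (SD, n = 3) and 4.41 ± 2.34 (SD, n = 4), a log2 fold change of -1.25 (SE 0.43; edgeR, adjusted p = 0.201). Uba1 OE replicate 1 was the lowest, within the range of cultured cells, and without it the log2 fold change of Cd8a was -0.96 at an adjusted p of 0.0636. With that replicate left out and no filter, the adjusted p of Cd8a was 0.0120 and that of Cd3e 0.0389. Both were chosen after seeing the data.

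Cd3e had 8, 16 and 6 counts in the EV tumors and 0, 1, 2 and 3 in the Uba1 OE tumors. Cd3g had 3, 6 and 3 counts against 1, 0, 0 and 2. Every Uba1 OE tumor thus held 3 counts or fewer of each chain, at the limit that a count of 0 allows. The ratio of rates was 0.125 for Cd3e, with a counting interval of 0.0426 to 0.306, and 0.157 for Cd3g, with one of 0.0283 to 0.580. Without the filter the adjusted p by edgeR was 0.128 for Cd3e and 0.315 for Cd3g.

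The granule genes of these tumors lay near the counting floor. Gzma had 0, 1 and 1 counts in EV tumors and 0 in all 4 Uba1 OE tumors, and Nkg7 had the same counts. Gzmb had 1, 2 and 3 against 0, 0, 1 and 2. No fold is given for these 3 genes, since no library of either group exceeded 3 counts. Prf1 had 2, 7 and 4 counts against 4, 2, 1 and 0, and these overlapped (edgeR without the filter, adjusted p = 0.518). Cd8b1 also overlapped, at 11, 5.08 and 6.28 counts against 6.57, 2.19, 8.42 and 10.9. Summed over the 6 genes other than Cd8a and Cd8b1, the EV tumors held 14 to 33 counts and the Uba1 OE tumors 3 to 7, where the cultured cells held 0 to 9.22.

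Only Cd8a of the 8 could be tested here, and it was not called, though its unadjusted p was under 0.05; DESeq2 and limma-voom called 0 as well. Of all genes tested, edgeR called 0.00673%. Lower in every Uba1 OE tumor were 3 of the 8, against 10.2% of genes with at least 1 count, and higher were 0, against 5.3%. Cxcl9 and Cxcl10 did not pass, with log2 fold changes of -1.95 (edgeR, adjusted p = 0.150) and -1.45 (edgeR, adjusted p = 0.160). Ptprc had a log2 fold change of -0.80 (edgeR, adjusted p = 0.200). The summed leukocyte markers were at 40.9 to 60.1 CPM in EV tumors and 19.6 to 51.9 CPM in Uba1 OE tumors. Skeletal muscle genes summed to 3.02 to 3.74 CPM in the EV tumors and to 454, 99.2, 2.71 and 2.96 CPM in Uba1 OE replicates 1 to 4, so the tumor lowest in Cd8a and Cd3e held the most. Prostate epithelium genes summed to 2253 to 2588 CPM in EV tumors and to 1202, 1768, 2052 and 2196 CPM in Uba1 OE tumors, lower in every one. The part of these 3 lists in the differences of Cd3e, Cd3g and Cd8a was not tested.

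In tumors treated with TAK-243 none of the 8 genes stood apart from vehicle, and all 8 overlapped. Cd8a was at 3.45 to 8.26 CPM, median 5.27, in the 6 vehicle tumors and at 4.90, 6.95, 4.57, 6.97 and 3.30 CPM in the 5 treated tumors. The means were 5.30 ± 1.71 (SD, n = 6) and 5.34 ± 1.59 (SD, n = 5), with a log2 fold change of -0.05 (SE 0.23; edgeR, adjusted p = 0.930). Cd8b1 was at 14.6 to 30.7 counts, median 20.04, against 31.2, 25.3, 23.6, 27.9 and 29.8, with a log2 fold change of 0.36 (SE 0.20; edgeR, adjusted p = 0.409). The counting interval of the ratio of rates was 1.05 to 1.72 for Cd8b1 and 0.900 to 1.09 for Cd8a, before any spread between tumors is counted.

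Cd3e had 2 to 18 counts, median 8, in vehicle tumors and 4, 9, 2, 7 and 12 in treated tumors. Cd3g had 0 to 5 counts, median 3, against 2, 5, 4, 2 and 0. Gzmb had 0 to 23 counts, median 7.5, against 2, 6, 0, 7 and 2, for 51 counts in all against 17. The Gzmb ratio of rates was 0.411 with a counting interval of 0.223 to 0.724, and the adjusted p, which counts the spread between tumors, was 0.562 (edgeR without the filter). Prf1 had 6.07 to 18.5 counts, median 8.76, against 10, 8, 7, 17.1 and 8.06. Gzma had 0 to 5 counts, median 1, against 0, 0, 0, 4 and 0, and Nkg7 had 0 to 2, median 0.5, against 1, 3, 0, 2 and 0. No library had more than 3 counts of Nkg7 and no fold is given for it.

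By edgeR 2 of the 8 genes could be tested (Cd8a, Cd8b1), 0 passed, and 0 had an unadjusted p under 0.05; DESeq2 and limma-voom also called 0. Of all genes tested 0.145% passed. Genes with at least 1 count were higher in every treated tumor in 0.691% and lower in 0.628%, and none of the 8 was either. The neutrophil genes S100a8 and S100a9 were higher after TAK-243, with log2 fold changes of 3.63 and 4.03 (edgeR, adjusted p = 0.0129 for both). Of the 3 chemokines 0 were called and 0 stood apart. Cxcl9 was at 1.52 to 7.48 CPM in vehicle tumors and at 1.65 to 3.62 CPM in treated tumors.

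**Figure D4:**
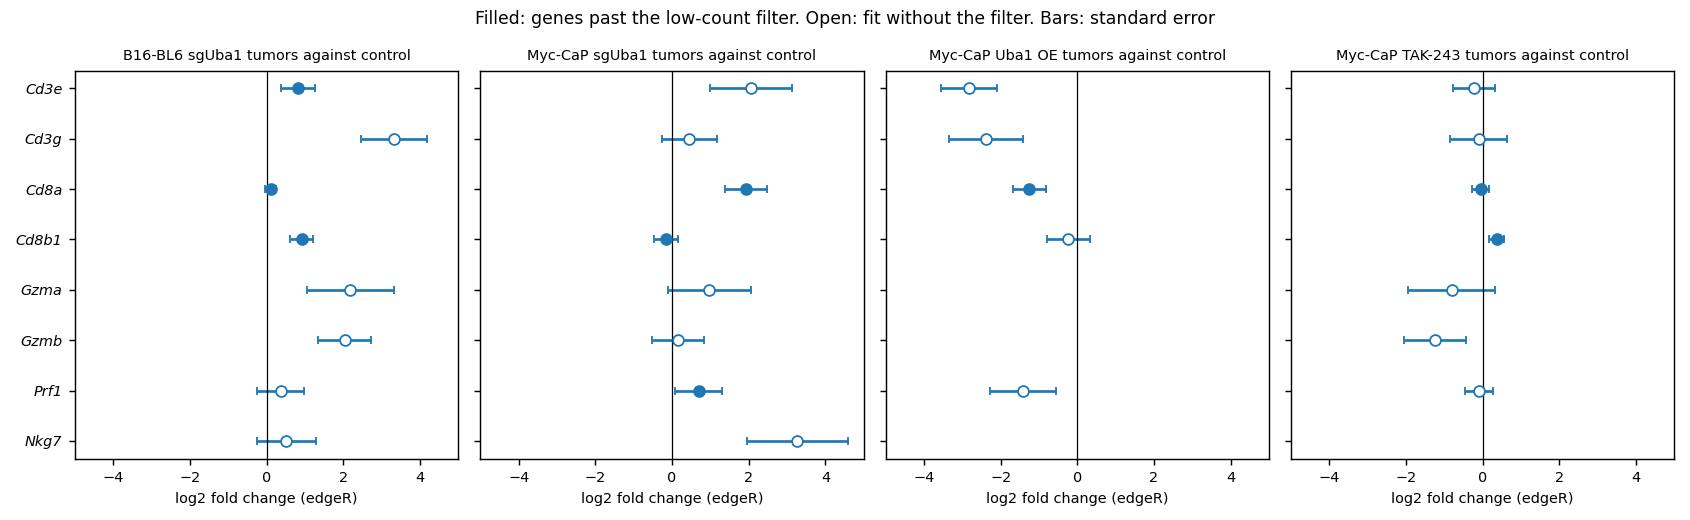
Each panel plots the log2 fold change of the genes in 1 of the 4 tumor comparisons, with bars of 1 SE. Filled points passed the filter on low counts, open points come from the edgeR fit without it, and no point is drawn where no library exceeded 3 counts. None passed an adjusted p of 0.05, and the bars of the low genes are wide.

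Beside the 8 genes, 47 other genes of T and NK cells were read, of which 45 had a row: the receptor complex, its signaling, NK receptors, effectors, transcription factors, checkpoint receptors, homing receptors, and helper and regulatory genes. In B16-BL6, 16 of them could be tested and edgeR called 0; 14 had a log2 fold change above 0, and their median was 0.32 against 0.01 for all genes. In Myc-CaP labelled sgUba1, 15 could be tested, 0 were called and 9 lay above 0, with a median of 0.13 against 0.00. Under Uba1 OE, 9 could be tested, 0 were called and 2 lay above 0, with a median of -0.50 against 0.00. After TAK-243, 16 could be tested, 0 were called and 10 lay above 0, with a median of 0.14 against 0.01. The number with an unadjusted p under 0.05 was 3, 6, 3 and 6 in that order, where 16.2%, 23.6%, 18% and 15% of all genes tested had one. The lowest adjusted p values were those of Tcf7, a transcription factor of T cells (0.0675, B16-BL6), and of Tigit, an inhibitory receptor (0.0783, Myc-CaP labelled sgUba1).

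Cd3d, which encodes the δ chain of CD3, had more signal in the cultured cells than the other CD3 chains. It was at 1.74 to 5.57 CPM in the cultured cells, and 7 of 35 tumors lay above the highest cell library. Like Cd3e and Cd3g it was lower in every Uba1 OE tumor, at 2.57 to 4.04 CPM, than in any EV tumor, at 4.16 to 5.23 CPM (log2 fold change -0.50; edgeR, adjusted p = 0.276). Ncr1, an activating receptor of NK cells, had 0 to 1 counts in B16-BL6 tumors and 0 to 9 in Myc-CaP tumors. Ifng, the cytokine of activated T and NK cells, had 11 counts over all 35 tumors, with 30 tumors at 0.

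Over the 35 tumors, each group's mean was taken off log2 CPM. The 17445 other genes were then ranked by Pearson's r with the mean of the 8 genes. The 3 highest were Il2rb (0.867), Fgl2 (0.809) and H2-Bl (0.778), against a median of -0.014 for all genes. Among the 8 themselves the highest r was that of Cd3e with Gzmb (0.684), followed by Gzmb with Nkg7 (0.619) and Cd3e with Nkg7 (0.561). Cd8a had an r of 0.194 with Cd3e and 0.250 with Gzmb. Low values were not particular to it, since Cd8b1 had 0.222 and 0.368 with this pair and Gzma 0.182 and 0.170. These values describe tumors of unequal depth, and most of the counts behind them are low.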

How the data were processed

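Bulk RNA-seq of 35 mouse tumors and 16 Myc-CaP cell libraries was used. The authors deposited expected counts per gene and TPM (transcript abundance scaled for length and depth); their processing notes name kallisto and mm10, with no version. The labels describe capture of poly-A RNA and the methods a kit that removes ribosomal RNA. Groups came from the labels, and 0 columns of other samples were present. Counts of reads had been assumed; the expected counts deposited were rounded to whole numbers for the tests.

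Each tumor experiment was fitted alone with edgeR's quasi-likelihood test, filterByExpr, TMM factors, and Benjamini-Hochberg adjustment over all genes at 0.05 (R 4.3.3, edgeR 4.0.16, limma 3.58.1, DESeq2 1.42.0, Python 3.11.15, scipy 1.17.1, pandas 2.3.3). Cxcl9, Cxcl10, Ptprc, Cd68 and the other genes outside the set came from lists of pathway and marker genes. The members, the lists and the rule to name every member were chosen with earlier results of these data known. CPM used library totals. Gene positions and guide sites came from GENCODE M21, in which 97.7% of the gene IDs were found, and guide sequences from the study's supplementary table. On data simulated from each comparison, edgeR recovered 89.9% of 199 changed genes in B16-BL6, 78.2% of 188 in Myc-CaP sgUba1, 82.9% of 193 in Uba1 OE and 94.4% of 196 in TAK-243. In that order edgeR made 10, 8, 7 and 9 false calls, and DESeq2 made 25, 41, 45 and 37. The changed genes were moved 3-fold up or down and drawn from genes past the filter on low counts. Of the 8 genes, 3, 3, 1 and 2 passed that filter in the same order, so these shares do not cover the rest.

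The alternatives were DESeq2, limma-voom, RLE size factors, no filter, at least 10 counts in every library, a replicate block, all 35 tumors in a single fit, log2(TPM + 1) and log2(TPM + 0.1) with limma, and leaving out each tumor. Library size only, no robust option, no filter combined with another tool or with a tumor left out, and the sum of the receptor segments were added after seeing the data. Tumors of the same number were not treated as pairs, since the labels do not pair them. The deviations of such pairs correlated at -0.179 to 0.315, and no comparison had every pair above 0.1. So few pairs cannot decide whether the numbers pair the tumors.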

Additional observations from a re-analysis of the deposited data

Results flagged for a closer look

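The 8 genes gave 38 groups of 4 to 7 tumors in which 1 tumor could be tested for standing far from the rest. The limits used mark about 1 in 20 groups by chance where values follow a normal curve. Many of these groups hold low counts with ties at 0, and their chance rate was not tested. In 5 of the 38 groups the highest tumor stood apart. Cd3e was at 1.94 CPM (23 counts) in Myc-CaP sgUba1 replicate 3, where the gap to the next tumor was 0.58 of the group's range. Cd3g was at 0.342 CPM (9 counts) in B16-BL6 sgUba1 replicate 3, with a gap of 0.835 of the range over counts of 6 to 9. Gzma was at 0.175 CPM (5 counts) in vehicle replicate 6 and at 0.150 CPM (4 counts) in TAK-243 replicate 4, whose 4 fellow tumors were at 0. Prf1 was at 0.641 CPM (17.1 counts) in the same TAK-243 replicate 4.

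Variable segments of the T cell receptor, 33 rows named Trav or Trbv, entered no comparison. Their summed counts reached 14 in a B16-BL6 sgNC tumor, and were 0 in all 16 cell libraries. The B16-BL6 tumors had 9 to 14 with sgNC and 5 to 11 with the sgUba1 label, and the Myc-CaP tumors had 0 to 3. Signal from cells outside the T cell lineage was not tested for these rows.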

How the results depend on the processing

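Over all settings the number of the 8 genes called was 0, leave-one-out included (0 to 0), save Cd8a, called in Myc-CaP sgUba1 (1 gene) with DESeq2 and with all 35 tumors in a single fit and in the difference between models (1 gene) with DESeq2, and the calls without the filter given for Cd3g in B16-BL6 and for Cd8a and Cd3e under Uba1 OE. Cd8a in Myc-CaP sgUba1 was also called with DESeq2 and no filter, which makes 8 calls in 606 fits of a gene under a setting. The number of genes called over the whole table moved more, and the cause was not tested. In B16-BL6 it was 157, and 534 with DESeq2, 270 without the filter, 54 with all 35 tumors, 99 with either TPM scale and 64 to 465 with 1 tumor left out. In Myc-CaP sgUba1 it was 485, and 1862 with DESeq2, 276 with limma-voom, 322 without the filter, 3102 with all 35 tumors, 240 with log2(TPM + 1), 293 with log2(TPM + 0.1) and 10 to 686 with 1 tumor left out. Under Uba1 OE it was 1, and 707 with DESeq2, 2 with limma-voom and with all 35 tumors, 7 without the filter, 4 with the stricter filter, library size only or no robust option, and 0 to 373 with 1 tumor left out. After TAK-243 it was 25, and 544 with DESeq2, 0 with the stricter filter, 91 with all 35 tumors, 16 with log2(TPM + 1) and 0 to 297 with 1 tumor left out. For the difference between models it was 278, and 1178 with DESeq2 and 107 without the filter.

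With the replicate block the genes called were 224 in B16-BL6, 4 in Myc-CaP sgUba1, 0 under Uba1 OE and 8 after TAK-243, and it called 0 genes of the set. In the block the log2 fold change of Cd8a in Myc-CaP sgUba1 was 0.69, from the pairs numbered 1 to 3 alone. Whether tumors of the same number share more than that number is not given by the labels.

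There were 420 alternatives for single genes, made up of log2 fold changes and of ratios of group means in TPM. The sign of a log2 fold change differed in 20, with 0 of them called. Prf1 in B16-BL6 was -0.32 without sgUba1 replicate 3. In Myc-CaP sgUba1, Cd8b1 was 0.030 without sgNC replicate 1 and 0.0011 without replicate 2 (-0.47 to 0.030 over all tumors left out), and Gzmb was -0.17 without sgUba1 replicate 3, -0.12 without sgNC replicate 2 and -0.23 without sgNC replicate 3. Under Uba1 OE, Cd8b1 was 0.067 without OE replicate 2 and 0.17 without EV replicate 1. After TAK-243, Cd8a was 0.028 with log2(TPM + 1), 0.035 with log2(TPM + 0.1), 0.0087 with library size only, 0.061 without TAK-243 replicate 5 and 0.10 without vehicle replicate 4 (-0.16 to 0.10 over all tumors left out). There Cd3g was 0.026, 0.22, 0.032 and 0.13 without TAK-243 replicate 1, TAK-243 replicate 5, vehicle replicate 4 and vehicle replicate 6. Cd3e was 0.093 and Prf1 0.079 without vehicle replicate 3, and Gzma was 0.011 without vehicle replicate 6. Of the rest, 394 counted as the same. For a log2 fold change that means direction and side of the threshold were kept. For a ratio it means a shift smaller than the SD of the ratio in CPM. The threshold was passed in 6, which leaves out the calls of Cd8a without the filter.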

Other observations

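The background level of Cd8a in cultured cells is given by state, with 2 libraries each and no test made. It was at 2.16 and 2.10 CPM in untreated parental cells and at 0.708 and 0.381 CPM with IFN-γ, where the counts were 32 and 32 against 10 and 6. It was at 1.49 and 1.87 CPM with TAK-243 and at 1.45 and 1.16 CPM with both. In NC cells it was at 1.79 and 2.02 CPM with PBS and at 1.64 and 0.841 CPM with IFN-γ. In sgUba1 cells the mean was 1.20 CPM with PBS and 1.39 CPM with IFN-γ. Of the Myc-CaP tumors, Uba1 OE replicate 1 lay within this range, at 1.30 CPM.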
